A study of Bombus terrestris with 20 samples.

Results

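The 75 genes described here were abundant in every sample type of the experiment: brain, fat body and ovary of workers of the bumblebee Bombus terrestris audax, and eggs laid by workers. They were chosen by their measured level. A gene was taken where the mean of the 6 libraries was at least 10000 normalized counts in each worker tissue (brain, fat body, ovary), and where both egg libraries held at least 10000 estimated counts. Of 10661 genes listed in the 4 tables, 9464 appear in all of them and 75 met the rule. Their high level is therefore how they were picked and no finding, whereas the difference between worker phenotypes was not directly used to pick them.

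Messenger RNA was sequenced from ovary-active (OA) workers, whose ovaries were scored as well developed, and from ovary-inactive (OI) workers, whose ovaries were scored as little developed or undeveloped. Each phenotype has 3 libraries in each of the 3 tissues (18 libraries) and each tissue library is a pool of workers, 7 in most cases. The workers that gave the tissues were untreated and of known age, came from colonies that still had their queen, and were reared in darkness on sugar solution and pollen. The tissues were dissected from shared workers, so the libraries of different tissues are not independent of each other. In brain, 1 OI pool combined the workers of a pair of pools and another came from colonies obtained later. OA and OI pools were matched by age. The 2 egg libraries are pools of newly laid worker eggs, prepared and sequenced by another provider than the tissue libraries. These eggs were laid in small groups of 3 workers of unknown age, taken from colonies obtained separately from those of the tissues. Replicates are pools, so the spread reported here is between pools and not between single bees. Within whole tissues, fewer cells of a type and less RNA per cell cannot be told apart.

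Genes that every cell uses at a high level are dominated, as a class, by the machinery of protein synthesis. Ribosomal proteins form the large (60S) and small (40S) ribosomal subunits together with ribosomal RNA, initiation and elongation factors bring messenger and transfer RNA to the ribosome, and chaperones fold the product. In the ovaries of bees and flies, nurse cells make large amounts of such transcripts and pass them into the oocyte, so newly laid eggs start with maternal RNA. Of the 75 genes, 16 have a gene name in the sources used here and 59 are known only by their identifier. The named ones were 7 ribosomal proteins (60S L9, L13, L13a, L37a and the ubiquitin-60S L40 fusion; 40S S4 and S18), 2 translation factors (elongation factor 1-alpha and initiation factor 4A-I), 3 chaperones (calreticulin and heat shock 70 kDa cognates 3 and 5), and icarapin-like, selenide, water dikinase, the translationally-controlled tumor protein homolog and upstream activation factor subunit spp27. The names held cover 2219 genes in all, so the number of ribosomal proteins among the 75 is a lower count. Reads of genes with near-identical copies may have been divided between the copies. Whether this concerns elongation factor 1-alpha or the ubiquitin part of L40 was not checked, as no sequences were held. Another gene named elongation factor 1-alpha, LOC100631080, averaged 25440 normalized counts in brain libraries, against 77157 for the member (LOC100631084). It averaged 271 against 127870 in fat body libraries and 611 against 133399 in those of ovary.

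The level of 10000 was reached by 344 genes in brain, 375 in fat body, 390 in ovary and 1082 in both egg libraries. In the 3 tissues together 90 genes reached it, and the eggs removed 15 of these. The members were thus 19.2% to 21.8% of the abundant genes of a tissue and 6.93% of those of eggs. Closest to the level on the inside were heat shock cognate 5 (LOC100644048), the mitochondrial Hsp70 of Drosophila, with 10050 normalized counts in brain, and LOC100651233 with 10069. Just outside were LOC100648109, with 9990 estimated counts in egg replicate 2, and LOC100649704, with 9886 normalized counts in fat body. The set depends on the level: 242 genes reached 5000 and 22 reached 20000. In 52 of the 75 genes each of the 20 libraries was at 10000 or more.

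The tissue values are counts that were not divided by transcript length, while the egg values are scaled from TPM, a unit that takes transcript length into account, and each tissue was normalized on its own. Levels of different genes are therefore not ranked against each other in the tissues, and levels of 1 gene in different tissues are set side by side with no test. In normalized counts, 39 of the 75 genes were highest in ovary, 23 in fat body and 13 in brain. Initiation factor 4A-I, the RNA helicase that opens messenger RNA ahead of the ribosome, was the most even, with a brain mean of 42269, a fat body mean of 41756 and an ovary mean of 46073. LOC100652262 was the least even, with a brain mean of 24091, a fat body mean of 77506 and an ovary mean of 10423. The median ratio of the highest to the lowest tissue mean was 1.99 over the 75 genes.

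Together the 75 genes, 0.747% of the genes listed in brain, made up between 6.83% and 10.3% of the values in each tissue library. In ovary the share was higher in OA workers: it was 10.3% in each of the 3 OA libraries and 8.92%, 9.53% and 8.97% in the OI libraries. The ovary groups did not overlap, and their means were 10.3% ± 0.0129 and 9.14% ± 0.337 (SD, n = 3 each). In fat body the shares of OA libraries, 9.44%, 9.62% and 9.18%, lay among those of OI libraries, 9.63%, 9.06% and 9.54%. In brain they were 8.09%, 6.83% and 8.51% in OA and 7.38%, 9.82% and 8.41% in OI workers, and overlapped. Since the members were chosen by their level, these shares are a description with no test.

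The share of a gene set moves with whatever else fills a library. In fat body a single gene that is no member, LOC100652170, held 19.6% to 22.5% of each library. With the 10 most abundant genes of each tissue taken out of the table, the members held 13.4%, 13.5% and 13.4% of OA and 13.2%, 12.9% and 13.1% of OI fat body, which do not overlap. In OA brain replicate 2, the lowest brain library, the non-member LOC100644055 held 6.89% of the values and the table summed to 32263286, against 23894703 to 24821992 in the other brain libraries. In ovary, where 5 of the 10 most abundant genes are members, the share without those 10 stayed apart, at 8.60% to 9.20% in OA and 7.36% to 7.83% in OI libraries. The 2 egg libraries gave 8.33% and 7.24%.

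**Figure D1:**
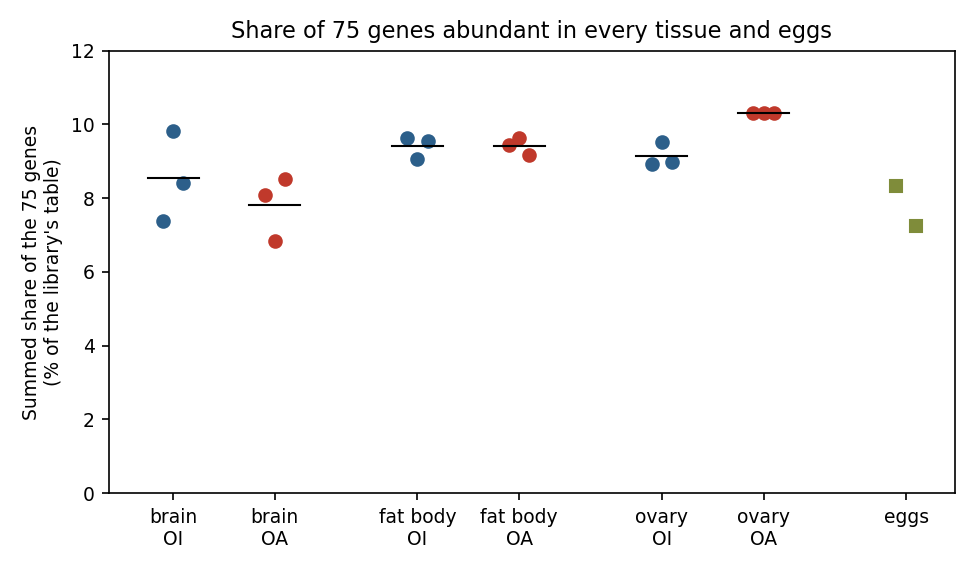
Summed share of the 75 genes in percent of each library's table (vertical axis), by tissue and phenotype. Points are libraries, black lines are group means of 3 libraries and squares are the 2 egg libraries. The 3 OA ovary libraries sit at 10.3%, above the OI ovary libraries at 8.92% to 9.53%, while the phenotypes overlap in brain and fat body.

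Whether the abundant genes shift with ovary activation was tested gene by gene within each tissue, as OA minus OI on the log2(normalized count + 1) scale with limma, over all genes averaging 10 or more. A gene counts as called where its adjusted p was under 0.05. All 75 members passed the filter in each tissue. In brain no member was called in either direction, and in fat body 1 was called. In ovary 33 were higher and 4 lower in OA workers.

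**Figure D2:**
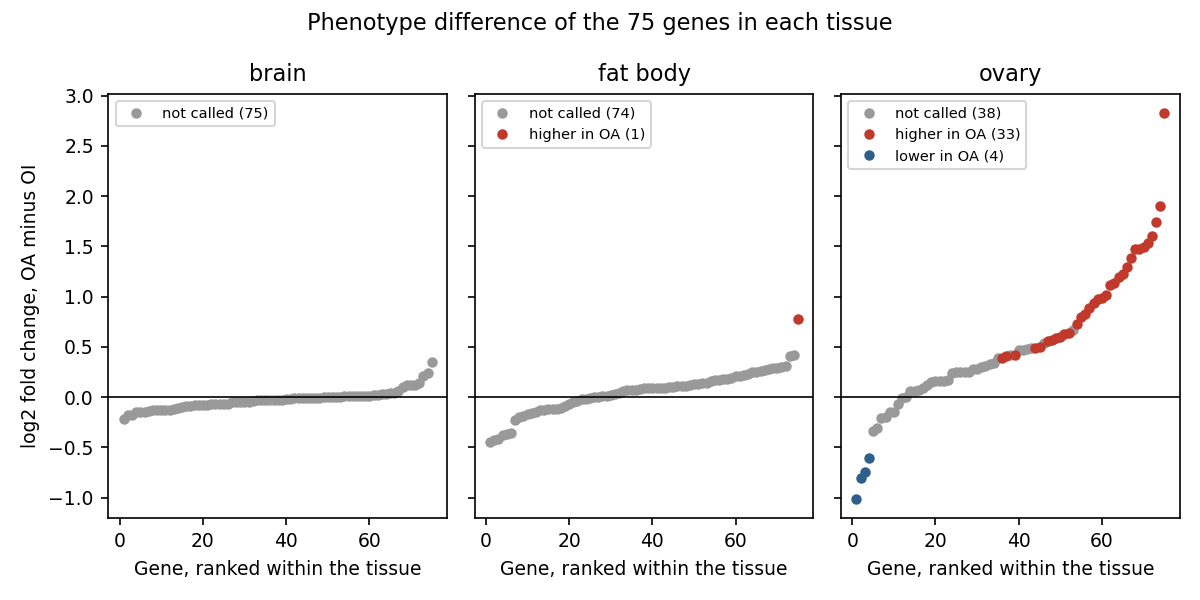
The log2 fold change of OA minus OI workers (vertical axis) of each of the 75 genes, ranked from lowest to highest within each tissue (horizontal axis). Coloured points passed an adjusted p of 0.05 in limma. Brain values lie between -0.22 and 0.35 with none called, fat body values between -0.45 and 0.78 with 1 called, and ovary values between -1.01 and 2.83 with 33 called higher and 4 lower.

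In brain the members differed little between phenotypes. Their median log2 fold change was -0.03, against 0.01 over all 9490 genes tested, and none reached an unadjusted p of 0.05. By limma 0 of 75 were called higher, where 0.0211% of all brain genes were, and 0 lower, where 0% were. DESeq2 called 0 as well. The brain mean of LOC100651233 reached the level of the rule in OA workers only, and that of LOC100644048 in OI workers only. The phenotypes failed to overlap in 0 members toward OA and in 2 toward OI (LOC100652262 and npve), against 1.84% and 2.69% of all genes. The 95% limma interval of the difference lay within 1 log2 unit of 0 in 74 of the 75 members and within 0.5 in 52.

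The exception in brain was heat shock cognate 3 (LOC100644323), which corresponds to the endoplasmic reticulum chaperone BiP in Drosophila, with an interval of -0.62 to 1.32. Its normalized counts were 13667, 37234 and 14723 in the OA and 12459, 19260 and 15160 in the OI brain libraries. Calreticulin (LOC100643307), a calcium-binding chaperone of the same compartment, had 16065, 31996 and 17793 in OA and 16690, 20563 and 17145 in OI brain. In both genes OA replicate 2, the library rich in LOC100644055, stood above the other 5 libraries, which overlap between the phenotypes.

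The spread in brain was shared by many members. Replicate 2 of OI brain was the highest of the 6 libraries for 53 of the 75 genes, and replicate 1 of OI brain was the lowest for 57. The same shares over all brain genes are not given here, so this may not be particular to the members. Each of the 7 ribosomal protein genes was highest in OI replicate 2, at 1.23 to 1.56 times its brain mean, and lowest in OI replicate 1, at 0.768 to 0.826 times. 60S L37a (LOC100644920), for example, had 9966, 20203 and 12037 normalized counts in OI and 11089, 11455 and 13105 in OA brain. The OI libraries thus enclosed the OA libraries. In brain replicate 2 a pair of OI pools was combined, if the numbering of the methods is that of the labels, and the part of this in the spread was not tested. Without OI replicate 2 the median log2 fold change of the members in brain was 0.07 and none was called.

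In fat body 1 member rose in OA workers. LOC110120261 had 20113, 24679 and 27123 normalized counts in OA and 13154, 13259 and 15277 in OI fat body, so all OA pools were above all OI pools. Its log2 fold change was 0.78 ± 0.13 (SE; adjusted p = 0.0236 in limma). The call did not hold without OA replicate 2, OI replicate 1 or OI replicate 2, each left out in turn, with adjusted p of 0.109, 0.0543 and 0.0921. The gene was called in ovary too and was the only member that limma called in more than 1 tissue. There it had 15765, 16166 and 33797 in OA and 12813, 9946 and 8889 in OI libraries, a log2 fold change of 0.98 ± 0.30 (adjusted p = 0.0277 in limma). Replicate 3 of OA ovary held far more counts than the other OA pools, and with the replicate number as a block the ovary call was lost (adjusted p = 0.0590 in limma), as it was with each library scaled to its total (0.0751) and without OI replicate 2 (0.0664) or OI replicate 3 (0.0917). Without OA replicate 3 the difference was 0.61.

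The other members of fat body moved less than the threshold allowed. The 1 call is 1.33% of the members, where 0.960% of all 8850 genes were called higher, and 0 were called lower, where 1.97% of all genes were. At an unadjusted p under 0.05, 8 members were higher and 6 lower, and DESeq2 called 6 higher and 4 lower. The shares of all genes by these measures are not given here, so the counts are not read as a trait of the members. Among those that DESeq2 called but limma did not were LOC100647111, at a log2 fold change of 0.42, and LOC100651498, at -0.45. The fat body mean of LOC100651498 reached the level of the rule in OI workers only, at 12368 against 8979 in OA workers. The rule can therefore favour its lower OA value there. The fat body mean of LOC100644048 also reached the level in OI workers only. The phenotypes did not overlap in 18 members toward OA and 10 toward OI, against 15.6% and 15.2% of all genes. The median log2 fold change was 0.09, against 0.00 over all genes, and 74 members had an interval within 1 log2 unit of 0. Replicate 2 of OA fat body was the highest of the 6 libraries for each of the 7 ribosomal genes, at 1.12 to 1.25 times their mean.

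In ovary the members shifted toward OA workers. The 33 called higher were 44.0% of the members, where 27.3% of all 9496 genes were called higher, and the 4 called lower were 5.33%, where 26.7% of all genes were. The phenotypes did not overlap in 46 members toward OA and 6 toward OI, against 33.3% and 33.3% of all genes. The median log2 fold change was 0.42 in the members and 0.02 over all genes. A similar share of calls toward OA was found in the 315 other genes whose ovary mean was at least 10000, of which 41.6% were called higher and 15.6% lower, with a median of 0.38. The rule itself can favour genes higher in OA ovary. By the paper, OA ovaries can hold unlaid eggs and OI ovaries hold none, while every member had to be abundant in laid eggs. The part of such eggs in this shift was not tested. The ovary mean of LOC100646662, LOC100651233, LOC100652262 and npve reached 10000 in OA workers only, while 71 members reached it in both phenotypes, with 30 called higher and 4 lower.

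The size of the ovary shift depends on the scaling. The deposited values put the median of all genes at 0.02, although the OA tables summed to between 28686261 and 32308744 and the OI tables to between 23371269 and 24006271. With every library scaled to its total instead, the median of all genes moved to -0.31 and that of the members to 0.09. On that scale 18 members were called higher and 8 lower, where 1580 of all 9496 genes were called higher and 3788 lower. Of the 37 calls, 22 held on that scale and 15 were lost, while 4 more members were called lower. The differences of 21 members changed sign, none of which was called on either scale. The directions given below are those of the deposited scale.

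The largest difference was that of LOC100652140. It had 155992, 107654 and 170382 normalized counts in OA ovary and 20612, 21482 and 17845 in OI ovary. The lowest OA pool was far above the highest OI pool, and the fold change was 7.13 (log2 2.83 ± 0.22, SE; adjusted p = 1.3e-04 in limma). In brain the same gene had 16581 to 17212 in OA and 15686 to 22666 in OI workers, and in fat body 29870 to 33622 and 35144 to 37898, in neither case called. LOC100652262 rose from 3769, 4701 and 4645 in OI to 20455, 14279 and 14686 in OA ovary, a fold change of 3.73 (log2 1.90 ± 0.18; adjusted p = 2.3e-04 in limma). Its ovary mean reached the level of the rule in OA workers only, at 16474 against 4372 in OI workers. The rule can therefore favour a rise of this gene in OA ovary. The fat body libraries, normalized on their own, held 66813 to 85297 of LOC100652262, with the phenotypes overlapping.

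Icarapin-like (LOC100642807), named after a venom protein of the honey bee that is an allergen in humans, had 113634, 110462 and 109444 in OA and 32953, 35558 and 31667 in OI ovary. Both groups were tight and wide apart, at a fold change of 3.33 (log2 1.74 ± 0.17; adjusted p = 2.9e-04 in limma). In brain its 129570 to 198247 counts in OA overlapped the 132509 to 155537 in OI workers. LOC105666558 had 87101, 110835 and 141802 in OA and 33893, 49558 and 29040 in OI ovary (log2 1.60 ± 0.28; adjusted p = 0.00244 in limma). Its OA pools were more spread, with none near an OI pool. LOC100646192 had 59470, 47491 and 56390 in OA and 18672, 19658 and 18044 in OI ovary (log2 1.53 ± 0.16; adjusted p = 3.3e-04 in limma).

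Both named chaperones of the endoplasmic reticulum rose in ovary. Calreticulin had 29812, 28738 and 24992 in OA and 10536, 14315 and 11785 in OI ovary (log2 1.20 ± 0.16; adjusted p = 9.1e-04 in limma). Heat shock cognate 3 had 23327, 22251 and 19839 in OA and 9187, 13782 and 9838 in OI ovary (log2 1.02 ± 0.18; adjusted p = 0.00277 in limma). The OA pools of each gene were above all OI pools. The mitochondrial heat shock cognate 5 had 14096, 14726 and 13114 in OA and 11188, 15955 and 13330 in OI ovary, which overlap, with a log2 difference of 0.06 and an interval of -0.30 to 0.43.

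The 4 members that were lower in OA ovary have no name in the sources used here. LOC100651498 had 17542, 20961 and 22647 in OA and 46954, 33770 and 42702 in OI ovary (log2 -1.01 ± 0.18; adjusted p = 0.00314 in limma). LOC100647746 had 26792, 26251 and 31400 in OA and 52820, 42418 and 53198 in OI ovary (log2 -0.81 ± 0.17; adjusted p = 0.00581 in limma). LOC100647296 had 43939, 43690 and 37917 in OA and 66262, 65333 and 80261 in OI ovary (log2 -0.75 ± 0.18; adjusted p = 0.00982 in limma). In each of them all OA pools were below all OI pools. LOC100645931 was also lower, with 24862, 30329 and 25291 in OA and 42711, 39884 and 39585 in OI ovary (log2 -0.61 ± 0.16; adjusted p = 0.0125 in limma), and without OI replicate 1 its adjusted p was 0.0551. LOC100651498 and LOC100645931 were at -0.45 and -0.38 in fat body, where limma called neither (adjusted p = 0.115 and 0.0684). In fat body LOC100651498 reached the level of the rule in OI workers only, which can favour its lower OA value there.

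**Figure D3:**
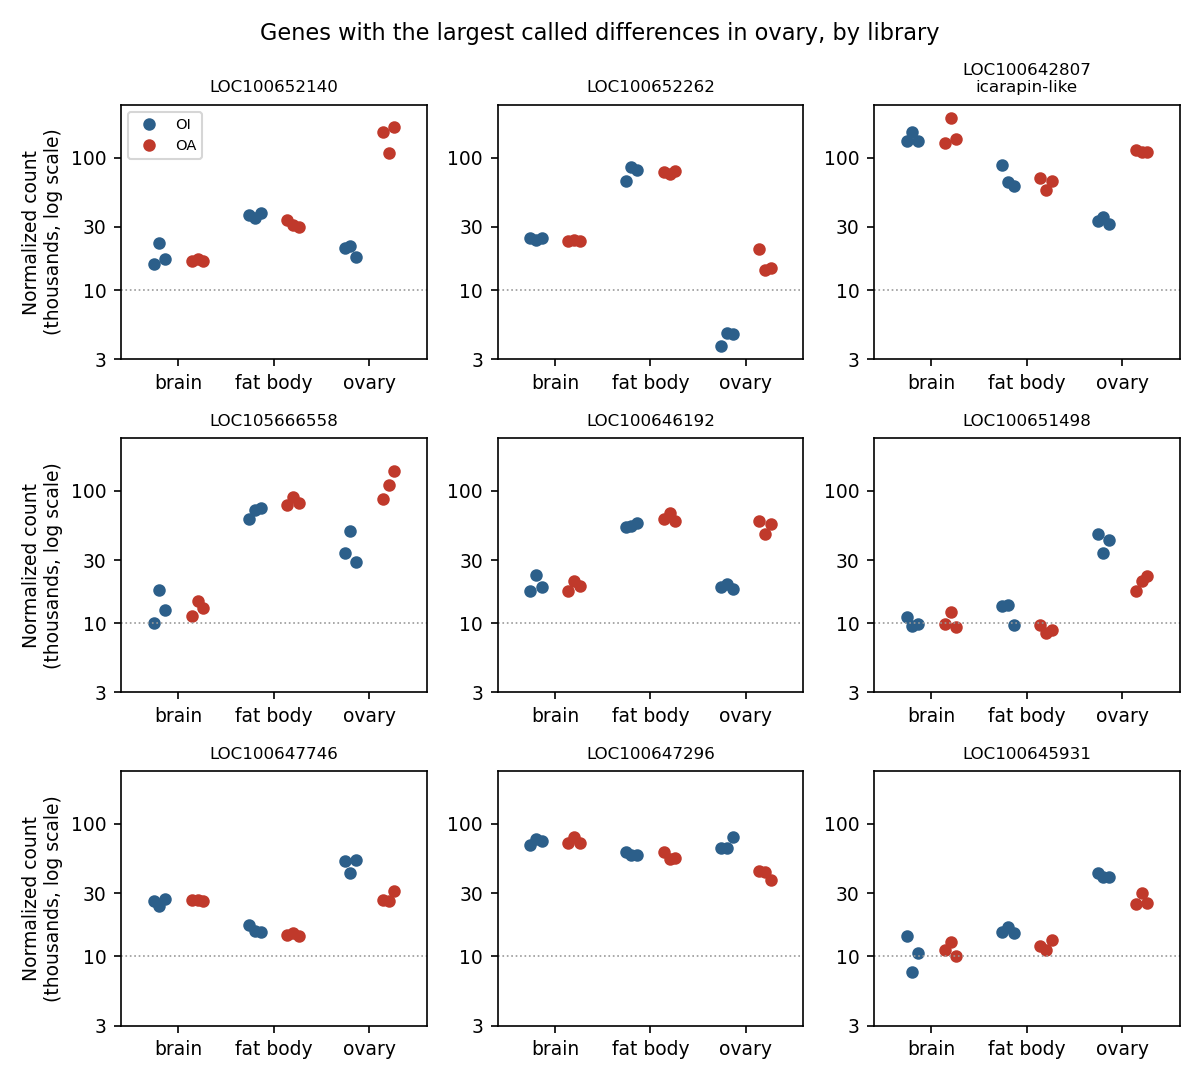
Normalized counts in units of 1000 (vertical axis, log scale) in each of the 18 tissue libraries for the 5 members called higher and the 4 called lower in OA ovary with the largest differences. Points are libraries, blue for OI and red for OA, the dotted line marks 10000, and each tissue was normalized on its own. In ovary the red and blue points are apart in every panel, as with LOC100652140 at 107654 to 170382 in OA and 17845 to 21482 in OI, and in brain they overlap or lie close.

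Of the 9 named ribosomal proteins and translation factors among the members, 1 was called in ovary, and their median log2 difference was 0.09. Over all genes 27.3% were called higher and 26.7% lower there. Members without a name may include more genes of this kind, so the 9 do not stand for all of them. The gene called was 60S L13 (LOC100631077), with 27958, 26819 and 44637 in OA and 20286, 22050 and 20390 in OI ovary (log2 0.63 ± 0.21; adjusted p = 0.0392 in limma). Under the total scaling this call was lost, at 0.29 (adjusted p = 0.201 in limma), as it was with the replicate number as a block (adjusted p = 0.0699 in limma). Without OI replicate 1, 2 or 3 the adjusted p was 0.110, 0.0611 and 0.107, and without OA replicate 3 the difference was 0.39. The other 6 ribosomal genes had log2 differences between -0.20 (L40) and 0.28 (L37a), and their phenotypes overlapped. Elongation factor 1-alpha (LOC100631084), which carries aminoacyl-transfer RNA to the ribosome, had 115258, 119980 and 136318 in OA and 132346, 135639 and 160850 in OI ovary. The groups overlapped, with a log2 difference of -0.21 ± 0.23 (adjusted p = 0.471 in limma). Initiation factor 4A-I had 41755, 41177 and 40399 in OA and 51221, 45012 and 56874 in OI ovary. Its OA pools were all lower, at -0.31 ± 0.17, without passing the threshold (adjusted p = 0.155 in limma), and under the total scaling it did, at -0.64 (adjusted p = 0.0140).

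Ovary replicate 3 of OA workers carried most of the spread in the ribosomal genes. It was the highest of the 6 ovary libraries for all 7 of them, at 1.27 to 1.65 times the ovary mean, and for 36 of the 75 members. The same share over all ovary genes is not given here. 40S S18 (LOC100642537), for example, had 26496, 26104 and 42990 in OA and 28693, 29907 and 28775 in OI ovary. OA replicates 1 and 2 were below all OI pools and replicate 3 was above them. Without OA replicate 3 the log2 difference of S18 was -0.15 and that of L37a -0.03, while 33 members were called higher, 32 of them among those called with it. The share of all genes called higher without that library is not given here. The 7 ribosomal genes peaked in 1 common library in each tissue, which was an OI library in brain and an OA library in fat body and ovary. A common cause of these peaks was not tested.

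**Figure D4:**
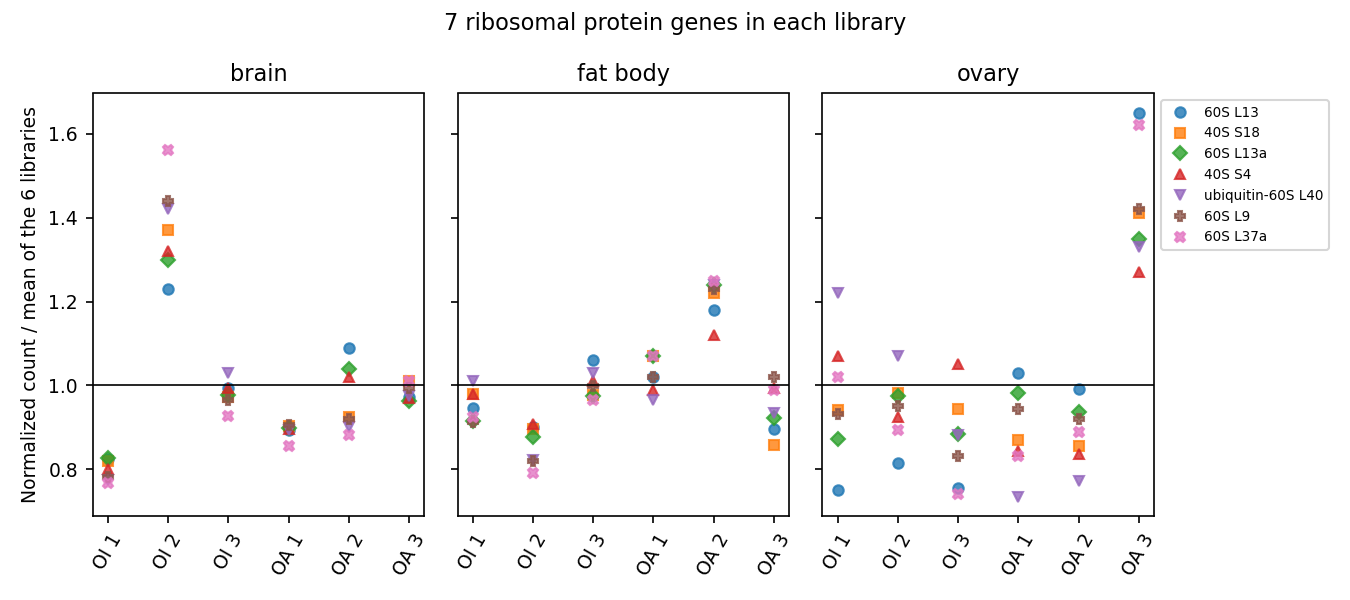
Normalized count of the 7 ribosomal protein genes divided by the mean of the 6 libraries of the tissue (vertical axis), for each library (horizontal axis). Each symbol is 1 gene. All 7 genes peak in OI replicate 2 in brain (1.23 to 1.56), in OA replicate 2 in fat body (1.12 to 1.25) and in OA replicate 3 in ovary (1.27 to 1.65).

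The wider pathways were read from the gene names held, members and non-members together. Of 23 named cytosolic ribosomal protein genes, none of the 22 tested in brain was called by limma, 1 of 23 was higher in fat body (40S S29, at 0.74) and 5 were higher and 0 lower in ovary, with a median of 0.37 on the deposited scale and 0.03 under the total scaling. The ovary calls besides L13 were S6, L23, L37 and S9, at log2 differences of 1.45, 1.21, 0.94 and 0.50. S9 was not called under the total scaling (0.16, adjusted p = 0.352 in limma), while S6, L23 and L37 were, at 1.11, 0.88 and 0.61. Among 13 mitochondrial ribosomal proteins 5 were higher and 0 lower in ovary. Of 13 translation factors 5 were higher and 2 lower there, and both members on that list, elongation factor 1-alpha and 4A-I, were among those not called. All 3 ATP synthase subunits and all 3 cytochrome c oxidase subunits tested, which belong to mitochondrial respiration, were higher in OA ovary, at log2 differences of 0.94 or more in ATP synthase and of 0.65 to 1.01 in cytochrome c oxidase. Of 6 subunits of the V-type proton ATPase, which acidifies vesicles, 3 were higher and 0 lower. Of 4 heat shock proteins, 1 was higher (cognate 3) and 1 lower (cognate 4, at -1.19), and of 4 actins and tubulins 2 were higher and 1 lower. Under the total scaling the ovary medians stayed above 0 for the mitochondrial ribosomal proteins (0.13), ATP synthase (0.67), cytochrome c oxidase (0.37), the V-type ATPase (0.14) and the actins and tubulins (0.10). That of the translation factors went from 0.22 to -0.11, and that of the heat shock proteins from -0.09 to -0.42. Over all genes 27.3% were called higher and 26.7% lower in ovary.

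The tissue labels were checked against markers first. The summed counts of the 3 neuronal genes were 22913 to 34538 in brain, against 1947 to 3224 in fat body. In OI ovary they were 20566 to 23023, which overlaps brain, so these genes set brain apart from fat body and from OA ovary but not from OI ovary. Those of the 3 germ line genes were 31414 to 64844 in ovary against 3234 to 7794 in brain and 4440 to 5677 in fat body. For fat body only 1 marker was tested in its own table, the transferrin receptor at 134 to 173, so its label could not be checked in this way.

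Markers of other cell types also differed between OA and OI ovaries. Of 9 muscle genes 2 were higher and 5 lower in OA ovary, with summed counts of 82203 to 93853 in OA and 62285 to 78512 in OI libraries. Of 3 neuronal genes 1 was higher and 2 lower, and their sum was 8662 to 10343 in OA and 20566 to 23023 in OI libraries. Of 3 germ line genes 1 was higher and 1 lower, with sums of 44176 to 64844 and 31414 to 44139. Of 3 haemocyte genes 0 were higher and 1 lower, with sums of 5300 to 10048 and 6521 to 10971. Of 2 genes taken as fat body markers 1, the vitellogenin-like precursor, was higher, with sums of 1512 to 2268 and 662 to 942. Their sums were 442 to 584 in brain and 134 to 173 in fat body, where only 1 was tested, so they do not mark fat body here. Each of these markers had counts in both phenotypes of ovary. In brain none of them was called, and in fat body only a titin homolog was, which was lower. The part of cell composition in the shifts of the members was not tested.

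The phenotype difference of a member was then compared between tissues, as the difference of the OA minus OI log2 values in a limma fit over the 12 libraries of both tissues. The difference was larger in ovary than in fat body for 25 members and smaller for 2, against 20.1% and 18.7% of all genes. It was larger in ovary than in brain for 28 and smaller for 3, against 21.4% and 22.5%. Under the total scaling 18 were larger and 7 smaller in ovary than in fat body, and 14 larger and 4 smaller than in brain. The shares of all genes in these contrasts on that scale are not given here. Between fat body and brain 0 members differed in either direction, against 0.138% and 0.138% of all genes, and 2 and 2 did at an unadjusted p under 0.05. The contrasts share the ovary libraries, and the tissues came from shared workers, which the fit treats as separate samples.

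LOC100652140 led both ovary contrasts, at 3.06 ± 0.24 against fat body (adjusted p = 1.2e-05) and 2.95 ± 0.27 against brain (adjusted p = 3.8e-05 in limma). Icarapin-like differed by 1.87 from fat body and by 1.62 from brain. Calreticulin differed by 1.22 from fat body (adjusted p = 7.7e-04) and by 0.98 from brain (adjusted p = 0.0294 in limma). Heat shock cognate 3 differed by 0.92 from fat body (adjusted p = 0.00552), but its difference of 0.67 from brain was not called (adjusted p = 0.258 in limma), with the high OA brain pool in the fit. Toward OI, LOC100647746 and LOC100647296 differed from both other tissues, at -0.68 and -0.70 against fat body and -0.85 and -0.76 against brain. LOC100651498 differed from brain at -1.04 but was not called against fat body on the deposited scale (-0.56, adjusted p = 0.0801 in limma). With libraries scaled to their totals it was, at -0.88 (adjusted p = 0.00867 in limma). LOC110120261, called in both fat body and ovary, differed by 0.20 between them (adjusted p = 0.699 in limma).

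Members that moved least were found by the widest bound of their 3 intervals. In 41 of the 75 genes the 95% interval lay within 1 log2 unit of 0 in all 3 tissues, and in 5 within 0.5. These 5 were LOC100645201, heat shock cognate 5, LOC100648560, LOC100651902 and LOC100646343, with largest bounds of 0.41, 0.43, 0.48, 0.48 and 0.49. Their ovary differences lay between 0.00 and 0.16 on the deposited scale and between -0.33 and -0.18 under the total scaling, with none called. In the RefSeq annotation of assembly iyBomTerr1.2, which holds 73 of the 75 genes, LOC100645201 lies next to another member, LOC100645451, and LOC105666120 next to LOC100648350. Both genes of the second pair were called higher in OA ovary, at 0.59 and 1.47, of which the first was lost under the total scaling (adjusted p = 0.334 in limma). In the first pair neither was called, at 0.07 and 0.49. The normalized counts of LOC100645451 in ovary were 141882, 175521 and 147202 in OA and 100261, 137799 and 95665 in OI libraries. LOC100645524 overlapped in ovary, with 75946, 111902 and 73171 in OA and 37634, 104795 and 39364 in OI libraries.

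In eggs the estimated counts follow TPM, so genes can be compared with each other. LOC105666558 had the highest value, 476212 in egg replicate 1 and 507978 in replicate 2, a mean share of 0.960% of the table. LOC100652140, which rose most in OA ovary, had 16214 and 14465. LOC100652262, the second, had 24921 and 28809, and icarapin-like 53610 and 50315. The members with the largest ovary differences were thus spread over the egg range, whose median was 34933.

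The egg libraries are 2 and were not normalized to each other, with totals of 50166010 and 52324103 estimated counts. No member was more than 3 times apart between them. The rule itself favours this, because a gene had to reach the level in both egg libraries. Left out by the egg part of the rule were 40S S6 (17566 and 709 in replicates 1 and 2) and LOC100648552 (26079 and 4845). Other genes left out were close, such as LOC100648109 (10029 and 9990). How well the egg libraries match can therefore not be judged from the members. The ratio of replicate 1 to replicate 2 had a median of 1.14 in the members and of 0.907 in all 1082 genes abundant in both. In 15 of the 75 members replicate 1 was more than 1.5 times replicate 2, against 28 of the 1082 genes (2.59%). The 7 ribosomal genes were all higher in replicate 1, from 1.14 times (L13, 67276 and 59033) to 2.48 times (L9, 31129 and 12558). LOC110120261 went the other way, with 26541 and 74476, and its ratio of 0.356 was the lowest of all 1082 genes. With 2 libraries of 1 kind there is no group to compare.

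**Figure D5:**
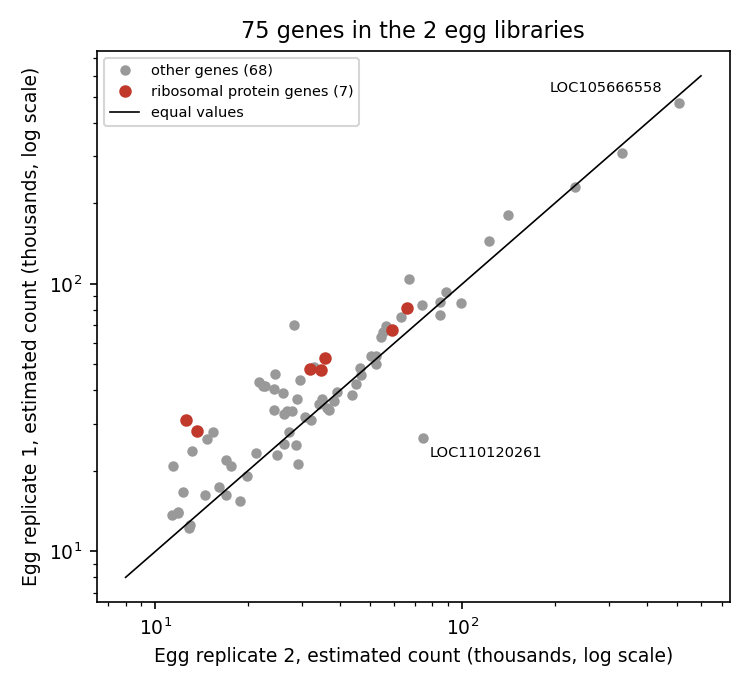
Estimated counts, in units of 1000, of the 75 genes in egg replicate 1 (vertical axis) and egg replicate 2 (horizontal axis), both on log scales, with the line of equal values. Red points are the 7 ribosomal protein genes, all above the line. LOC110120261 (26541 and 74476) lies farthest below it.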

How the data were processed

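The authors used Kallisto 0.46.1 to pseudoalign reads against transcripts of assembly Bter_1.0, summed them per gene with tximport and normalized each tissue with DESeq2 1.34.0 in R 4.1.3. The signal values deposited for tissues are these normalized counts. The egg values deposited by the authors are estimated counts on the scaledTPM option, not normalized between libraries. A tissue library held between 23118226 and 34419603 reads, as its table sum divided by the value of 1 read (0.770 to 1.386). Between 63.2% and 70.6% of its values were whole reads within 0.02 reads (100.0% in OI brain replicate 3, which thus carried no gene factor), so counts could not be recovered for all genes and DESeq2 1.42.0 on values divided by that constant and rounded was an alternative only.

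Groups and replicate numbers came from the sample labels. Within each tissue, limma 3.58.1 in R 4.3.3 (lmFit, eBayes with trend) was fitted to log2(value + 1) with phenotype as the only term, over genes averaging 10 or more, with Benjamini-Hochberg adjustment over all of them. On simulated data, with the same dispersion for every gene and no shift of totals between phenotypes, the scripts recovered the changed genes. This does not bear on the scaling of the ovary libraries. Shares are percents of the table sum. OA and OI pools were matched by age in pairs, and brain replicate 2 of OI workers is the one described as combined from a pair of pools. Whether replicate numbers in the labels follow these pairs is not stated in the sources used here, so phenotype was fitted without the pairs and the number as a block was an alternative. Neither pool size nor colony was modelled.

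The members and the gene lists were chosen with earlier results of these data known. Values were printed by rule for the 5 members with the highest lowest level (counts not divided by length), for up to 5 calls per tissue and direction, for members called in more than 1 tissue, for members whose difference differs between tissues (the 10 largest), for the members nearest the level, and for members over 3 times apart between eggs. Other named members, the ribosomal genes among them, were added after their values were seen. Gene names came from the study's supplement, held in part. Alternatives were other pseudocounts, filters, scalings (table total, TMM), levels and thresholds, a replicate block, and each library left out.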

Additional observations from a re-analysis of the deposited data

Results flagged for a closer look

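The phenotype difference of 27 members differed between ovary and fat body, and that of 31 between ovary and brain, by the limma test of the difference itself at an adjusted p under 0.05. These are differences of log2 fold changes, and every one of those listed next is larger in ovary. The 10 largest against fat body were LOC100652140 (3.06), LOC100652262 (1.90), icarapin-like LOC100642807 (1.87), LOC100646910 (1.58), LOC100646763 (1.36), LOC100646192 (1.35), LOC105666558 (1.33), LOC100646691 (1.26), calreticulin LOC100643307 (1.22) and LOC100645780 (1.17). The 10 largest against brain were LOC100652140 (2.95), LOC100652262 (1.95), icarapin-like LOC100642807 (1.62), LOC105666558 (1.62), LOC100646192 (1.58), LOC100647111 (1.57), LOC100648350 (1.55), LOC100646691 (1.49), LOC100646910 (1.39) and LOC100646662 (1.38). Of all genes tested, 20.1% and 18.7% differed upward and downward between ovary and fat body, and 21.4% and 22.5% between ovary and brain. Among the genes listed, LOC100652262 and LOC100646662 reached the level of the rule in ovary in OA workers only. The rule can therefore favour a larger ovary difference in these genes. The groups hold 3 libraries each, so no library was tested for standing apart.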

How the results depend on the processing

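In ovary, 18 members were called higher and 8 lower with libraries scaled to their totals, where the members' median was 0.09. Of all 9496 genes, 1580 were called higher and 3788 lower on that scale. On the deposited scale 20 members were higher at an adjusted p under 0.01. With 1 library left out, the ovary calls ranged from 22 to 33 higher and from 3 to 4 lower. In fat body, DESeq2 called 6 higher and 4 lower, the total scaling 1 lower and the stricter threshold 0 higher, and with 1 library left out 0 to 1 were higher and 0 to 1 lower. Under the total scaling 92 of all 8850 fat body genes were called higher and 349 lower. The shares of all genes at the stricter threshold, in DESeq2 and with 1 library left out are not given here. These counts are therefore not read as a trait of the members. The fat body difference in summed share, 0.00 percentage points, was 0.37 without the 10 most abundant genes. Under the total scaling 18 members differed between ovary and brain (14 larger and 4 smaller in ovary), and between ovary and fat body 18 were larger and 7 smaller in ovary, where 25 and 2 were on the deposited scale. The number of members was 242 at a level of 5000 and 22 at 20000.

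Some differences that were not called turned direction. Under the total scaling these were 21 members in ovary, 3 in fat body and 17 in brain, none called on either scale. Among those of ovary were S18 LOC100642537 (-0.25), L13a LOC100642552 (-0.09), L9 LOC100644293 (-0.09), L37a LOC100644920 (-0.06), LOC100643620 (-0.05), LOC100643909 (-0.09), LOC100644048 (-0.27) and LOC100644566 (-0.08). With 1 library left out, ovary values ranged from -0.15 to 0.21 for S18, -0.27 to 0.03 for S4, -0.03 to 0.45 for L37a and -0.06 to 0.19 for heat shock cognate 5, and brain values of LOC110120261 from -0.21 to 0.32.

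The replicate number as a block left 27 members higher and 4 lower in ovary, 1 and 0 in fat body and 0 in brain. The study matched OA and OI pools by age, and the labels do not say whether the numbers follow these pairs. The deviations of same-numbered libraries correlated at -0.22, -0.11 and 0.25 in brain, -0.24, 0.05 and -0.24 in fat body and -0.06, 0.16 and -0.18 in ovary. With the block, 24 members differed between ovary and fat body and 29 between ovary and brain. The shares of all genes called with the block are not given here, so these counts are not read as a trait of the members. Among the ovary calls lost under 1 or more alternatives were those of L13, LOC100645931, LOC110120261 and LOC105666047. The last of these was lost under the total scaling (0.05, adjusted p = 0.727 in limma) and with the block (0.0986). Of the 33 calls toward OA, 6 were lost with the block and 11 without OI replicate 3. In all, 15 of the 37 ovary calls were lost under the total scaling, and 4A-I was gained in ovary under the total scaling (-0.64). With 1 library left out, the difference in summed share ranged from -1.31 to -0.09 percentage points in brain and from 1.04 to 1.35 in ovary, and the members' median in brain from -0.13 to 0.07. The cause of these changes was not tested. With 3 pools per group, the smallest ovary difference called among the members was 0.39 (LOC105666047), and no smaller one was called.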

Other observations

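Among the 90 genes at 10000 in all 3 tissues, 15 fell short in 1 or both egg libraries. Of these, 4 have a name in the sources used here: thioredoxin-2, a small redox protein (9153 and 6315 estimated counts in egg replicates 1 and 2), prosaposin, the precursor of lysosomal activator proteins (6087 and 5600), leucine-rich repeat-containing protein 15 (11272 and 9018) and 40S ribosomal protein S6 (17566 and 709). S6 was thus abundant in 1 egg library and not in the other, whereas its mean in ovary was 55251 normalized counts, the highest of the 3 tissues. LOC100652068, at 28530 in ovary, had 733 and 796 in eggs.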
